A study of Mus musculus with 15 samples.

Results

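The genes examined here encode the COPI coat and the KDEL receptors, the machinery that carries proteins back from the Golgi to the endoplasmic reticulum (ER). The 10 genes are Copa, Copb1, Copb2, Cope, Arcn1, Copz1 and Copz2 for the coat and Kdelr1, Kdelr2 and Kdelr3 for the receptors. They were taken by name, with every probe set that the platform's gene table assigns to that symbol alone. This gave 16 probe sets out of 34945 with a single symbol, and 10 genes out of 18193. All 16 probe sets and all 10 genes passed the filter on dim signals, a log2 signal of at least 4 on at least 3 of the 15 arrays.

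COPI is a protein coat that the small GTPase ARF recruits to Golgi membranes, where it buds vesicles that travel back to the ER. The coat is made of an outer part (the alpha, beta-prime and epsilon subunits) and an inner part (beta, delta, gamma and zeta). The KDEL receptors are membrane proteins of the early Golgi. They bind soluble ER proteins that have escaped, by the short signal at the end of these proteins, and return them in COPI vesicles. Hepatocytes secrete large amounts of plasma protein and depend on this traffic to keep chaperones in the ER.

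The cells were primary hepatocytes of C57BL/6 mice, infected in culture with adenovirus and measured on Affymetrix whole-genome expression arrays, with 3 arrays in each of 5 groups. In 3 groups the virus carried EGFP (the control), IRE1a of the wild type or its S724A form, and cells were taken at 48 hours. In the other 2 groups it carried a control hairpin (Ad-shCON) or a hairpin against IRE1a (Ad-shIRE1a#2) for 72 hours, after which both groups received glucagon for 4 hours. IRE1a, the product of Ern1, is the ER stress sensor whose RNase splices the message of the transcription factor XBP1, and S724A is a form with an altered serine. Per the series text the experiment was done 3 times independently. The 48-hour and 72-hour groups differ in virus, time and glucagon at once, so no test joined them. Only 1 hairpin against IRE1a was used, every group carried a virus, and no uninfected cells are among the arrays.

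The promoters of the coat and receptor genes were searched for 4 sequence motifs known from genes of the unfolded protein response, which XBP1 and ATF6 bind. RefSeq promoter windows of GRCm38.p6, running from 250 bases before to 50 bases after the start site, were held for 8 of the 10 genes (none for Arcn1 and Kdelr2). On both strands the letters TGACGTGG occurred in 3 of the 8 genes, Copb1, Copb2 and Kdelr3, and in 0.676% of 32851 windows of the same length. The shorter CCACGT, which lies inside the reverse complement of TGACGTGG, occurred in 5, these 3 with Copz1 and Copz2, and in 8.31% of all windows. Neither the ER stress response element ERSE (0.119% of windows) nor ERSE-II (0.0365%) occurred in the 8 genes. Stretches of 4 promoters are shown 5′ to 3′ on the gene's strand, with the matched letters in capitals, so that genes that rose can be set beside genes that did not pass the test. Kdelr3 and Copz1 rose in both overexpression comparisons, while Copb1 and Copb2 hold the longer match and did not pass. With wild-type IRE1a, Copb2 differed from EGFP by 0.47 and Copz1 by 0.45 on the log2 scale, so their split there rests on the threshold. When each gene's probe sets were averaged it turned round: Copb2 passed there (0.56) and Copz1 did not (0.16). Copb1 and Copb2 were chosen after their values were seen.
Kdelr3, chr15:79516308-79516407, plus strand: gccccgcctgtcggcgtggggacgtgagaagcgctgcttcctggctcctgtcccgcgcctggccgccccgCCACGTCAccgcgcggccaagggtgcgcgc
Copz1, chr15:103272788-103272908, plus strand: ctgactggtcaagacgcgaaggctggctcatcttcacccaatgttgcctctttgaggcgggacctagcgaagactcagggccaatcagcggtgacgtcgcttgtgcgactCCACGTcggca
Copb2, chr9:98563631-98563736, plus strand: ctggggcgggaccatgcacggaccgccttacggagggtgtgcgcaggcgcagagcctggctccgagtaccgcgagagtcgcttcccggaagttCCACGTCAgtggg
Copb1, chr7:114254681-114254780, minus strand: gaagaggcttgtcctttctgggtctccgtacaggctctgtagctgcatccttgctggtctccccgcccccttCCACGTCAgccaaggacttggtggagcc
In Kdelr3 the match lies 30 to 23 bases before the start site, in Copb1 28 to 21 bases before it, and in Copb2 it spans the start site. The match in Copz1 is the shorter one, 11 to 16 bases after the start. A match is only an occurrence of these letters. The windows of Copa, Cope and Kdelr1, which also rose, held none of the 4 motifs.

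With wild-type IRE1a, 6 of the 10 genes rose over EGFP and none fell: Copa, Cope, Copz1 and all 3 KDEL receptors. Among all 16294 genes tested, 5.08% rose and 2.59% fell. With S724A IRE1a the same 6 genes rose and none fell, against 3.87% and 2.25% of all genes. The median difference over the 10 genes was 0.58 with wild-type and 0.62 with S724A IRE1a on the log2 scale, beside 0.0031 and -0.013 over all genes. The wild-type count was 4 without EGFP replicate 2 or without wild-type replicate 2, and the S724A count was 5 or 6 with any 1 array left out. With the replicate number as a block, 8 genes rose with wild-type and 7 with S724A IRE1a, beside 10.6% and 8.89% of all genes. The groups did not overlap in 8 of the 10 genes in each of these comparisons, all higher than EGFP, beside 15.8% and 16.5% of all genes. The 2 comparisons share the EGFP arrays and are given side by side. In bulk RNA of this kind, a change in the makeup of the cells and a change in RNA per cell cannot be told apart.

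**Figure D1:**
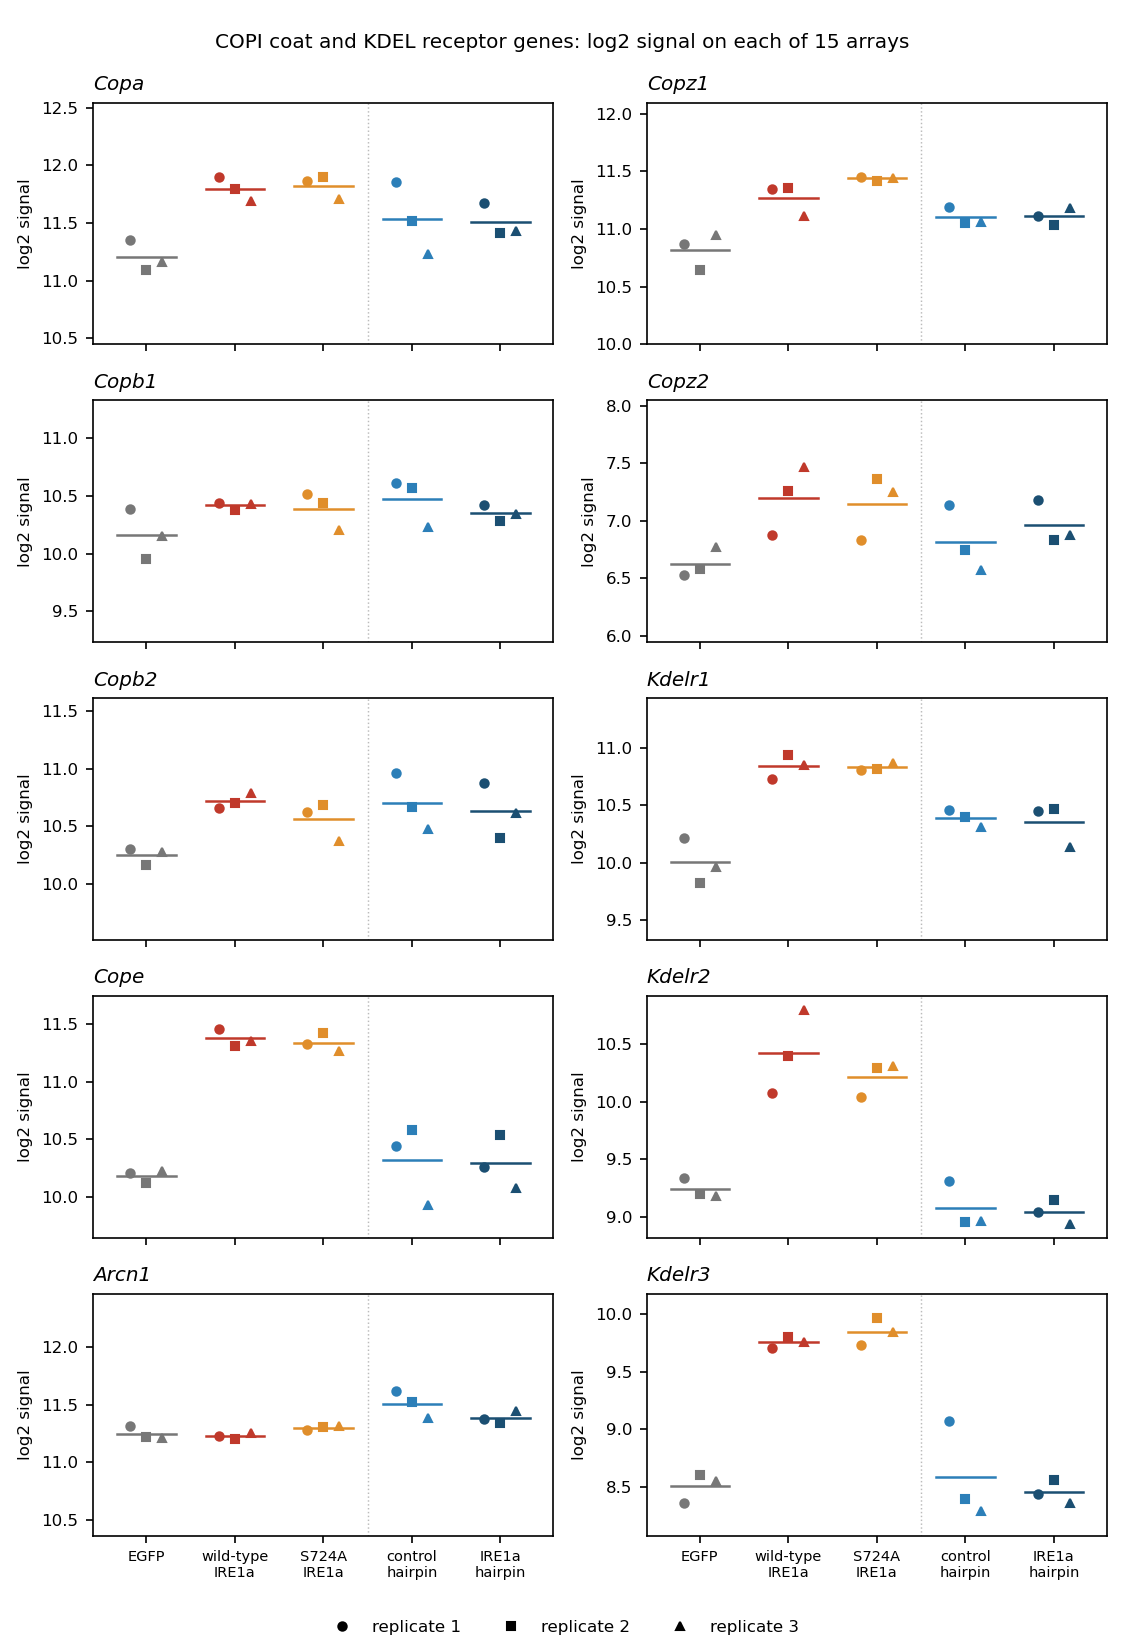
Log2 signal (vertical axes, each spanning the same range) of the 10 coat and receptor genes on each of the 15 arrays, grouped along the horizontal axis, with the mean of 3 arrays as a line and the replicate number as the marker's shape. Cope and the 3 KDEL receptors lie higher on all 6 arrays with an IRE1a virus than on the 3 EGFP arrays, and Arcn1 does not.

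Kdelr3, a KDEL receptor induced in ER stress, had log2 signals of 8.36, 8.61 and 8.55 with EGFP. They were 9.71, 9.80 and 9.76 with wild-type IRE1a and 9.73, 9.97 and 9.84 with S724A IRE1a. All 6 arrays with an IRE1a virus were above the 3 EGFP arrays by more than 1. The gene rose by 1.25 ± 0.16 (SE, n = 3 arrays per group, 2.38-fold) with wild-type and by 1.34 ± 0.16 (2.53-fold) with S724A IRE1a. The adjusted p-values were 0.000213 and 0.000119 (limma, two-sided, Benjamini-Hochberg over all genes tested). Kdelr3 had the largest rise of the 10 genes in each comparison. With glucagon the control hairpin arrays read 9.07, 8.40 and 8.29 and those of the IRE1a hairpin 8.44, 8.56 and 8.36, so that 5 of 6 arrays lay in the range of the EGFP arrays or just below it. The exception was control hairpin replicate 1.

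Kdelr2, one of the receptors expressed in most tissues, read 9.34, 9.20 and 9.18 with EGFP, 10.08, 10.39 and 10.80 with wild-type and 10.04, 10.29 and 10.31 with S724A IRE1a. Here the arrays with an IRE1a virus were again all above EGFP, but they were spread wider, with replicate 1 lowest in both groups. Kdelr2 rose by 1.18 ± 0.16 (2.27-fold, limma adjusted p = 0.000286) and by 0.97 ± 0.16 (1.96-fold, adjusted p = 0.00165). The second call was lost when its 2 probe sets were averaged (0.44, adjusted p = 0.335), of which the other is described further on. The hairpin arrays, at 9.31, 8.95 and 8.97 for the control and 9.04, 9.14 and 8.94 for IRE1a, had the lowest means of the 5 groups.

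Kdelr1, the third receptor, had the smallest rises of the receptors. It read 10.22, 9.83 and 9.97 with EGFP, 10.73, 10.93 and 10.85 with wild-type, and 10.80, 10.82 and 10.87 with S724A IRE1a. The rises were 0.83 ± 0.12 (1.78-fold, limma adjusted p = 0.000439) and 0.83 ± 0.12 (1.77-fold, adjusted p = 0.000528). Its hairpin group means lay between those of EGFP and the IRE1a viruses, with arrays at 10.46, 10.40 and 10.31 with the control hairpin and 10.45, 10.47 and 10.14 with the IRE1a hairpin.

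Among the outer coat subunits, Cope, which encodes epsilon-COP, stood out. Its signals were 10.21, 10.13 and 10.23 with EGFP, 11.46, 11.31 and 11.36 with wild-type and 11.33, 11.43 and 11.27 with S724A IRE1a. The 2 IRE1a groups intermingled and were separated from EGFP by a gap of more than 1. Cope rose by 1.19 ± 0.15 (2.29-fold, limma adjusted p = 0.000186) with wild-type and by 1.16 ± 0.15 (2.23-fold, adjusted p = 0.000280) with S724A IRE1a. Cope is held by a single probe set. The hairpin arrays, 10.45, 10.59 and 9.93 with the control and 10.26, 10.54 and 10.08 with IRE1a, were spread around the EGFP values.

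Copa encodes alpha-COP, which binds the dilysine signals of cargo. It read 11.35, 11.09 and 11.16 with EGFP, 11.90, 11.80 and 11.69 with wild-type and 11.87, 11.90 and 11.70 with S724A IRE1a. The groups did not overlap, with EGFP replicate 1 and wild-type replicate 3 the closest pair for the wild-type form. Copa rose by 0.59 ± 0.14 (1.51-fold, limma adjusted p = 0.0195) and by 0.62 ± 0.14 (1.54-fold, adjusted p = 0.0182). The first call was lost without EGFP replicate 2 or 3 or wild-type replicate 1 or 2 and the second without EGFP replicate 2 or 3 or S724A replicate 1 or 2 (adjusted p up to 0.0896 and 0.0914), and each when its 2 probe sets were averaged (adjusted p = 0.583 and 0.0870, at 0.40 and 1.09). With glucagon Copa read 11.86, 11.52 and 11.23 under the control hairpin and 11.68, 11.42 and 11.43 under the IRE1a hairpin.

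Copb2 encodes beta-prime-COP, the close relative of alpha-COP in the outer coat. Its arrays were at 10.31, 10.17 and 10.28 with EGFP, 10.66, 10.70 and 10.79 with wild-type and 10.62, 10.69 and 10.38 with S724A IRE1a. Although no array of an IRE1a group fell into the EGFP range, the gene did not pass, at 0.47 ± 0.14 (limma adjusted p = 0.0562) and 0.31 ± 0.14 (adjusted p = 0.193). The wild-type difference passed under a block on replicate number (adjusted p = 0.0161), from the 6 arrays alone (0.0364), with a stricter filter (0.0446), with trended variances (0.0488) and when its probe sets were averaged (0.0305). Under the hairpins it read 10.96, 10.67 and 10.48 (control) and 10.87, 10.40 and 10.62 (IRE1a), above EGFP on all 6 arrays.

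In the inner coat, Copz1, the more widely expressed zeta subunit, read 10.87, 10.65 and 10.95 with EGFP. It was at 11.35, 11.36 and 11.12 with wild-type and at 11.45, 11.42 and 11.45 with S724A IRE1a. Wild-type replicate 3 was the closest to EGFP, and all 3 S724A arrays were above all 3 wild-type arrays. Copz1 rose by 0.45 ± 0.10 (1.37-fold, limma adjusted p = 0.0139) and by 0.62 ± 0.10 (1.53-fold, adjusted p = 0.00198). The first call was lost from the 6 arrays alone and when replicate 1 or 2 of wild-type or replicate 2 of EGFP was left out (adjusted p up to 0.0819). Both calls were lost when its 2 probe sets were averaged (0.16 and 0.31, adjusted p = 0.334 and 0.0582). The hairpin arrays ran from 11.05 to 11.19 with the control and from 11.03 to 11.18 with IRE1a, above EGFP and, wild-type replicate 3 apart, below the IRE1a viruses.

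Copz2, its paralogue, is the subunit with a narrower expression. It read 6.53, 6.58 and 6.77 with EGFP, 6.88, 7.26 and 7.47 with wild-type and 6.83, 7.36 and 7.25 with S724A IRE1a. The groups did not overlap, with replicate 1 lowest in both IRE1a groups, and the differences of 0.57 ± 0.18 and 0.52 ± 0.18 did not pass (limma adjusted p = 0.0730 and 0.106). Under a block on replicate number both passed (adjusted p = 0.00448 and 0.0103), and the first also without wild-type replicate 1 (adjusted p = 0.0318). The hairpin arrays ran from 6.57 to 7.14 (control) and from 6.84 to 7.18 (IRE1a).

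Arcn1, which encodes delta-COP, and Copb1, which encodes beta-COP, differed least from EGFP. Arcn1 stayed between 11.21 and 11.31 on all 9 arrays of the 48-hour groups: 11.31, 11.22 and 11.21 with EGFP, 11.23, 11.21 and 11.26 with wild-type and 11.28, 11.31 and 11.31 with S724A IRE1a. The differences from EGFP were -0.02 ± 0.09 (95% confidence interval -0.20 to 0.17, limma adjusted p = 0.937) and 0.05 ± 0.09 (-0.13 to 0.24, adjusted p = 0.739). These intervals lie below the rises of the 6 called genes. The sign of each difference turned with scaling, the first with median centring and the second with quantile normalisation. Copb1 read 10.38, 9.95 and 10.16 with EGFP, 10.44, 10.38 and 10.43 with wild-type and 10.52, 10.44 and 10.21 with S724A IRE1a. Its groups overlapped, at 0.25 ± 0.13 (-0.02 to 0.53, adjusted p = 0.279) and 0.22 ± 0.13 (-0.06 to 0.50, adjusted p = 0.312), with EGFP replicate 1 as high as the lowest wild-type array.

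**Figure D2:**
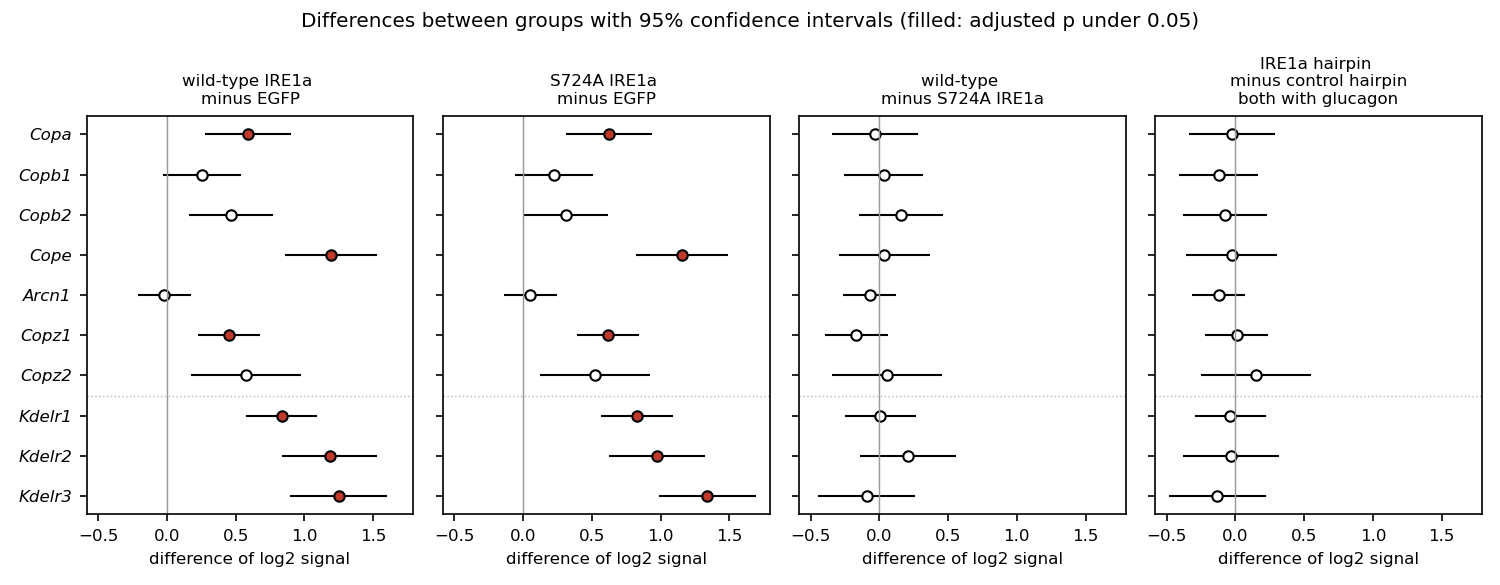
Difference of log2 signal (horizontal axis) of each gene in the 4 comparisons, with the 95% confidence interval from limma and filled points for an adjusted p under 0.05. The same 6 genes are filled in each of the first 2 panels, led by Kdelr3, Cope and Kdelr2, and none in the last 2.

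Wild-type and S724A IRE1a were then set against each other to ask whether the altered serine mattered for these genes. None of the 10 genes passed, and none of the 16294 genes did (0% called). At an unadjusted p under 0.05 the counts were 0 of 10 and 997 of 16294. With the replicate number as a block none of the 10 passed, and 2 of the 16294 genes did (0.0123%), lower with wild-type. The largest differences were in Kdelr2, 0.21 ± 0.16 higher with wild-type (95% confidence interval -0.13 to 0.55, limma adjusted p = 0.881), and in Copz1, -0.17 ± 0.10 (-0.39 to 0.05, adjusted p = 0.857). Copb2 differed by 0.16 ± 0.14 (-0.14 to 0.46) and Kdelr3 by -0.09 ± 0.16 (-0.44 to 0.25). The other 6 genes, Copa, Copb1, Cope, Arcn1, Copz2 and Kdelr1, differed by -0.07 to 0.05. When probe sets were averaged, Copa differed by -0.69 (adjusted p = 0.736) and Kdelr2 by 0.55 (adjusted p = 0.727), each with a second probe set in which wild-type replicate 3 stands apart. Copz1 and Arcn1 had all 3 wild-type arrays below all 3 S724A arrays, against 4.69% of all genes. A difference within a gene's interval, such as -0.26 to 0.11 for Arcn1 or -0.13 to 0.55 for Kdelr2, is not excluded by these arrays.

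The hairpin against IRE1a was compared with the control hairpin, both under glucagon, to ask what less IRE1a does. Ern1 itself read 8.89, 8.96 and 9.10 with the control and 7.60, 7.44 and 7.51 with the IRE1a hairpin, a fall to 0.362-fold, or -1.47 on the log2 scale (limma adjusted p = 0.00293). This is 1 of 5 Ern1 probe sets. Of the other 4, which did not pass, 3 differed by -0.65 to -0.43 and 1 by 0.35, and the mean of the 5 fell by 0.56 (adjusted p = 0.0258). None of the 10 coat and receptor genes passed. Of all genes 0.0491% rose and 0.184% fell, and at an unadjusted p under 0.05 the counts were 0 of 10 and 1260 of 16294. The groups overlapped in all 10 genes, and were apart in 11.5% of all genes. The differences ran from -0.13 ± 0.16 in Kdelr3 (-0.48 to 0.21, adjusted p = 0.865) to 0.15 ± 0.18 in Copz2 (-0.25 to 0.54, adjusted p = 0.869). Cope, Copa, Kdelr1 and Kdelr2, which rose with the IRE1a viruses, differed here by -0.03, -0.03, -0.04 and -0.03. Copz1 differed by 0.01, Copb2 by -0.07, and Copb1 and Arcn1 by -0.12 each. The median over the 10 genes was -0.04, beside 0.021 over all genes.

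In the 48-hour arm Ern1 gave no check of the overexpression. The probe set that stands for it differed by 0.12 ± 0.19 with wild-type (limma adjusted p = 0.775, and -0.11 when its 5 probe sets were averaged) and by 0.46 ± 0.19 with S724A IRE1a (adjusted p = 0.159, and 0.061 with an adjusted p of 0.713 when averaged). The S724A difference of 0.46 passed in 2 settings (adjusted p = 0.0215 with the replicate number as a block and 0.0362 without EGFP replicate 1). Whether its probes lie in the part of the message that the viruses carry is unknown here. The groups are therefore named as labelled.

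Over all 5 groups, EGFP had the lowest mean in 7 of the 10 genes and an IRE1a virus group the highest in 8. How often all genes show these orders was not counted, so the counts do not set these 10 apart. Few neighbours in that order had arrays that did not overlap. Such a pair is called a gap here, however narrow, and some gaps were smaller than the spread within a group. In Cope, Kdelr1 and Kdelr3 a single gap, between the control hairpin and the lower IRE1a virus group, split the order, and in Kdelr2 it fell between EGFP and S724A IRE1a. Copa and Copb2 had their only gap just above EGFP. Copz1 had a pair of gaps, above EGFP and between wild-type and S724A IRE1a. Arcn1 ran differently, with the 3 virus groups of the 48-hour arm below both hairpin groups and a gap between S724A IRE1a and the IRE1a hairpin. Copb1 and Copz2 had none. Levels across the 2 arms are a description only.

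Copa, Copb2, Arcn1, Copz1 and Kdelr2 have more than 1 probe set, and these did not always move alike. For Copb2 the second probe set (1456175_a_at) rose with wild-type IRE1a by 0.66 ± 0.17 (limma adjusted p = 0.0324 over the 30046 probe sets tested), a call lost without any 1 of the 6 arrays (adjusted p up to 0.115). The 3 probe sets of Arcn1 differed from EGFP by -0.14 to 0.15 over both comparisons, with none past the threshold. The weaker Copz1 probe set (1447834_at) differed by -0.12 ± 0.14 and 0.00 ± 0.14, unlike the one that stands for the gene. In all, 7 of the 16 probe sets rose with wild-type IRE1a (3.77% of all) and 6 with S724A IRE1a (3.13% of all), and none fell (2.07% and 1.75% of all). The first count was 4 without EGFP replicate 2 or wild-type replicate 2.

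**Figure D3:**
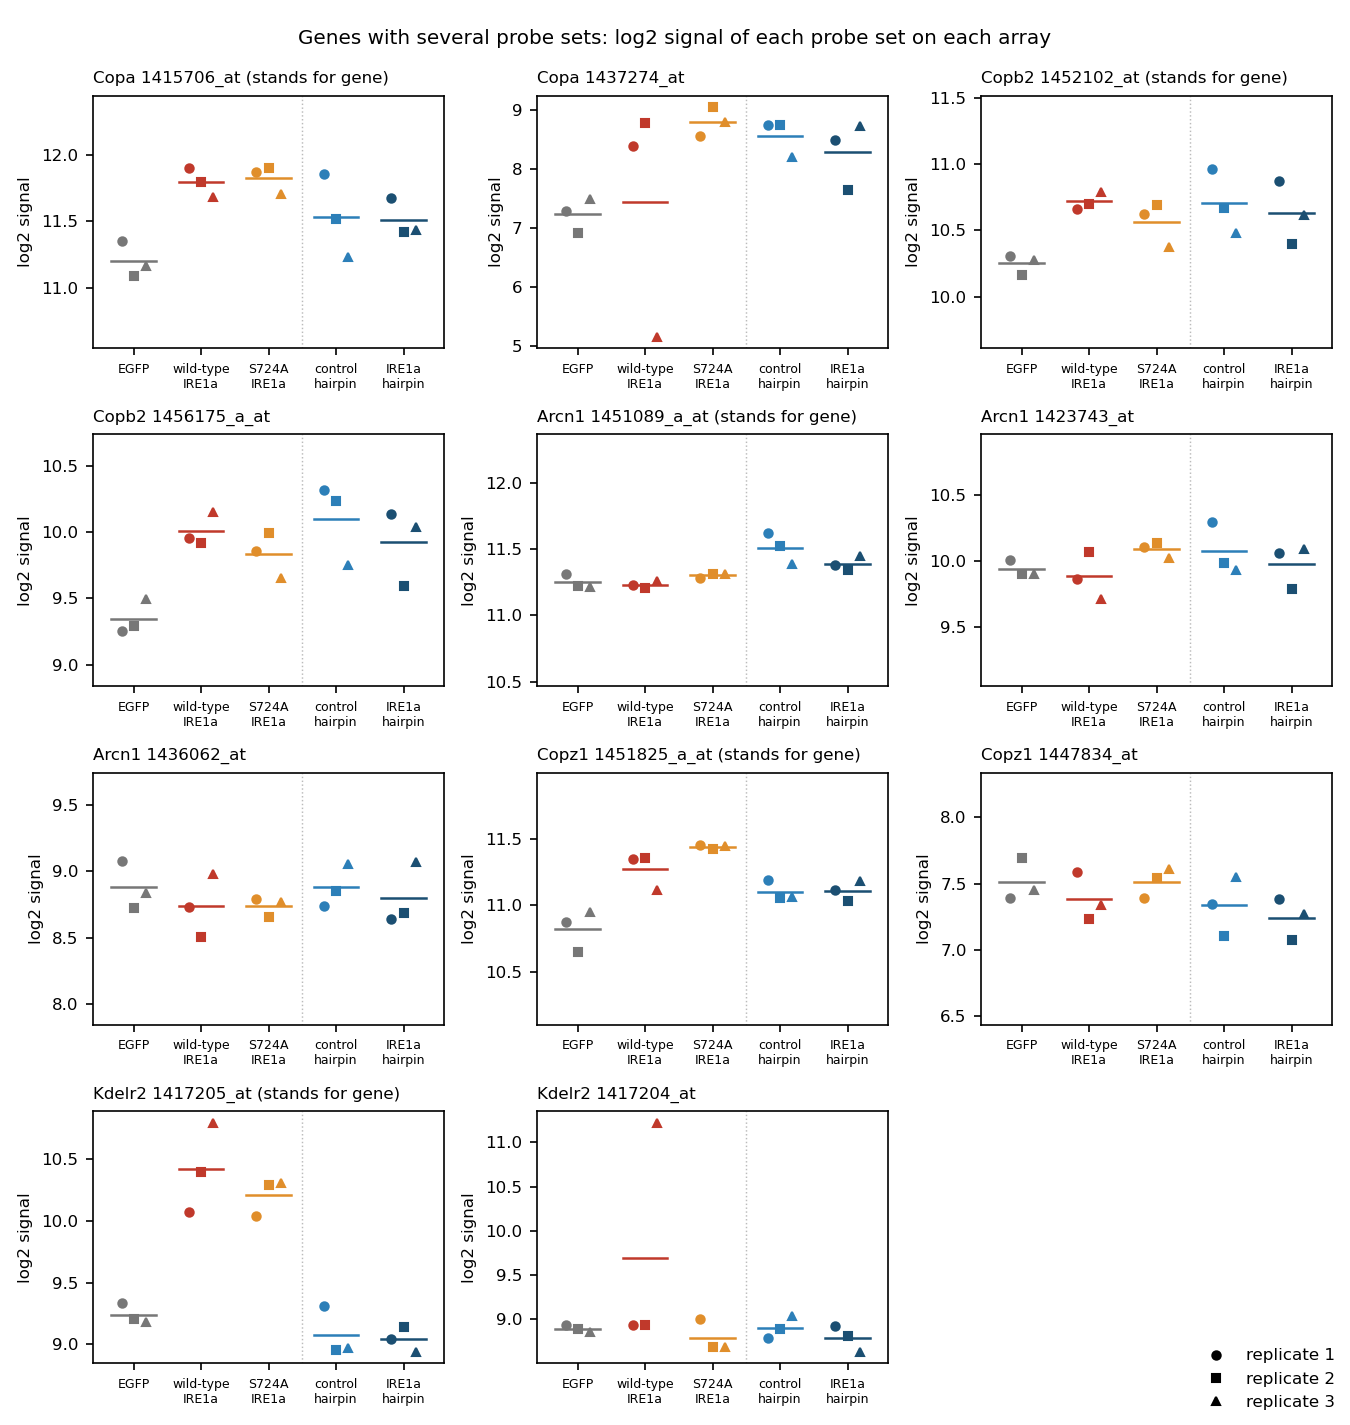
Log2 signal (vertical axes, each with its own range) of the 11 probe sets of Copa, Copb2, Arcn1, Copz1 and Kdelr2 on each array, with group means as lines and replicate numbers as marker shapes. Wild-type replicate 3 stands alone in the second probe sets of Copa (5.16) and Kdelr2 (11.22).

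A single array set the values of 2 of these probe sets. The second Copa probe set (1437274_at) read 7.29, 6.92 and 7.49 with EGFP, 8.38, 8.77 and 5.16 with wild-type and 8.56, 9.04 and 8.79 with S724A IRE1a. Wild-type replicate 3 was thus the lowest of all 15 arrays, and the difference of 0.21 ± 0.65 (limma adjusted p = 0.905) became 1.34 without it (adjusted p = 0.0145). The second Kdelr2 probe set (1417204_at) read 8.93, 8.93 and 11.22 with wild-type IRE1a and between 8.63 and 9.04 on the other 12 arrays. It differed from EGFP by 0.80 ± 0.42 with wild-type (limma adjusted p = 0.322) and by -0.10 ± 0.42 with S724A IRE1a (adjusted p = 0.912). On the first probe set of Kdelr2 wild-type replicate 3 was also the highest, at 10.80. Wild-type replicate 3 lay more than 1.5 from both other arrays of its group in 354 of the 30046 probe sets, and every other array did so in 3 to 80. Without it the count of coat and receptor genes that rose was again 6.

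The other genes of the pathway were counted from a list of 28, of which 26 were tested. It holds the gamma subunits of the coat, the ARF cycle and the tethers and SNAREs of retrograde vesicles. With wild-type IRE1a 10 rose and none fell, with a median of 0.35, and with S724A IRE1a 10 rose and none fell, with a median of 0.33, where 5.08% and 3.87% of all genes rose. Under the block on replicate number 13 rose and none fell with wild-type IRE1a. Under it with S724A IRE1a 14 rose and 1, Rab1b, fell (-0.32, limma adjusted p = 0.0322, and 0.0524 without the block). The block raised the shares of all genes too, to 10.6% and 8.89% that rose and 4.99% and 5.52% that fell. Copg1, the gamma-COP subunit that completes the coat, rose by 0.75 ± 0.15 (limma adjusted p = 0.00773) and 0.86 ± 0.15 (adjusted p = 0.00346), while its paralogue Copg2 differed by 0.10 ± 0.14 and 0.01 ± 0.14. Arfgap3, a GTPase-activating protein of ARF on COPI vesicles, rose most, by 2.45 ± 0.19 and 2.44 ± 0.19. The tether Uso1 rose by 1.17 ± 0.13 and 1.22 ± 0.13, and the p24 proteins Tmed10 and Tmed9, which travel in COPI vesicles, by 0.95 ± 0.14 and 0.73 ± 0.12, then 0.77 ± 0.14 and 0.86 ± 0.12. The tethering subunit Rint1 rose by 0.69 ± 0.12 and 0.67 ± 0.12 and Arf4 by 0.58 ± 0.10 and 0.64 ± 0.10. When probe sets were averaged these calls held, at smaller sizes in several genes. Arfgap3 was then at 1.72 and 1.93, Copg1 at 0.43 and 0.45, Rint1 at 0.39 and 0.48, and Arf4 at 0.46 and 0.42. Tmed9 was a little higher, at 0.78 and 0.91. Sec22b and Stx18 passed in both as well. The ARF exchange factor Gbf1 differed by 0.39 ± 0.12 and 0.35 ± 0.12 (adjusted p = 0.0563 and 0.0957), and Arf1, the main ARF of the coat, by 0.19 ± 0.08 and 0.20 ± 0.08 (adjusted p = 0.189 and 0.140). Gbf1 passed in both under a block on replicate number (0.0228 and 0.0437). Copg2, Sec22b, Stx18, Gbf1 and Arf1 were picked for their role with their values known. None of the 26 passed between the 2 IRE1a forms or with the hairpin (0 and 3 at an unadjusted p under 0.05, beside 6.12% and 7.73% of all genes). Under that block Arf3, another ARF, fell with the hairpin by 0.68 ± 0.17 (adjusted p = 0.0429, and 0.169 without the block). Of all genes 0.694% fell there under the block.

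A list of 29 ER residents and cargo proteins stood for the proteins that KDEL receptors and COPI bring back, and 27 were tested. Their end signals were not read here, so whether each carries a retrieval signal was not checked. With wild-type IRE1a 15 rose and 1, Ogfod3 (named after its values were seen), fell by 0.46 ± 0.12, with a median of 0.61. With S724A IRE1a 18 rose and none fell, with a median of 0.83. The shares of all genes that rose were 5.08% and 3.87%, and 2.59% and 2.25% fell. Under the block on replicate number 17 rose and 2 fell with wild-type, the second being Plod1 (-0.62, limma adjusted p = 0.0181, and 0.122 without the block). Under it 19 rose and none fell with S724A IRE1a. The shares of all genes under the block were 10.6% and 8.89% that rose, and 4.99% and 5.52% that fell. The folding factor Manf rose by 2.30 ± 0.11 and 2.48 ± 0.11, the disulfide isomerase Pdia6 by 1.55 ± 0.12 and 2.01 ± 0.12, the chaperone Hsp90b1 by 1.01 ± 0.11 and 1.40 ± 0.11, and the cargo receptor Lman1 by 1.30 ± 0.11 and 1.45 ± 0.11. When probe sets were averaged Pdia6 was at 0.99 and 1.09 and Lman1 at 0.81 with wild-type IRE1a, all still past the threshold. The KDEL receptors' rises of 0.83 to 1.34 lay within the range of this list. Between the 2 IRE1a forms none of the 27 passed (10 at an unadjusted p under 0.05, beside 6.12% of all genes), and the median was -0.24, with all 3 wild-type arrays below all 3 S724A arrays in 13 of 27, beside 4.69% of all genes. For the coat and receptor genes the median of that comparison was 0.020 and for all genes 0.025. With the hairpin none of the 27 passed (1 at an unadjusted p under 0.05, beside 7.73% of all genes).

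**Figure D4:**
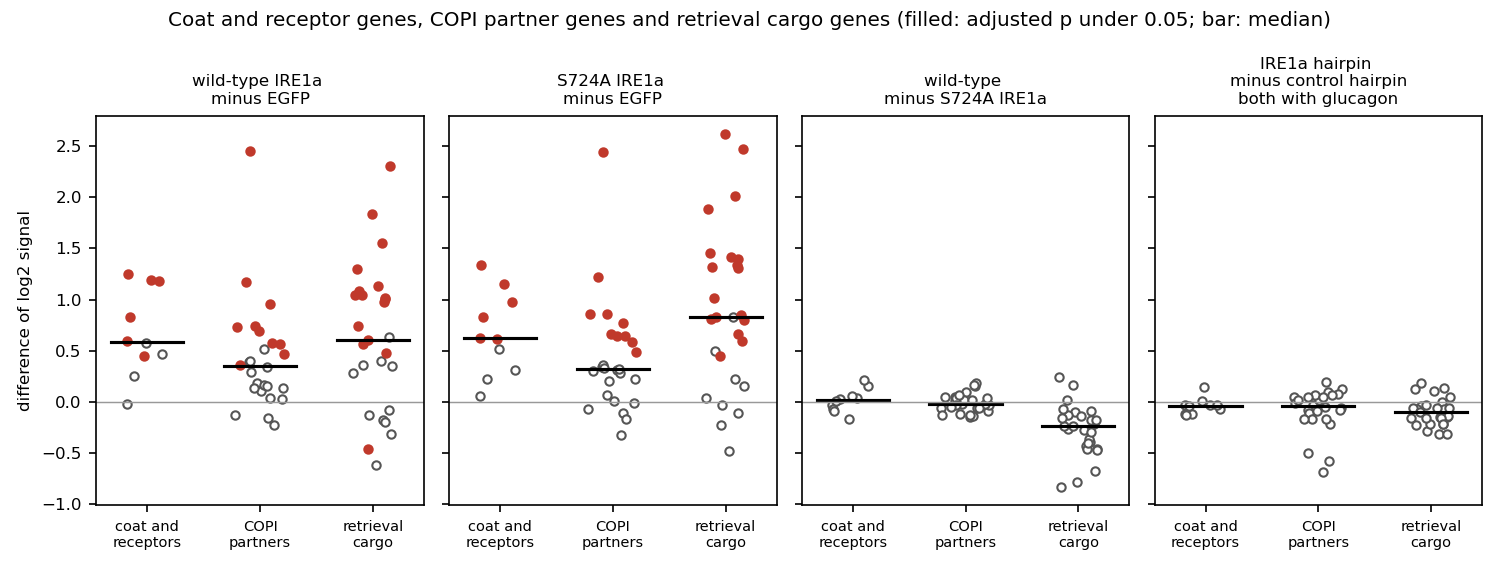
Difference of log2 signal (vertical axis) in the 4 comparisons for the 10 coat and receptor genes, the 26 tested COPI partner genes and the 27 tested retrieval cargo genes. Points are genes, filled for an adjusted p under 0.05, and bars are medians. The medians of the first 2 panels run from 0.33 to 0.83, and in the third the cargo median is -0.24, beside -0.02 and 0.020.

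The profiles were also set against each other and against all other genes, by the root mean square difference of log2 signals over the 15 arrays after each gene was centred on its own mean. Among the 10 genes the closest pairs were Copb1 with Copb2 (0.13) and Copa with Copz1 (0.14), and the most distant was Arcn1 with Kdelr3 (0.71). The genes outside the 10 that ran closest to the mean of the 7 coat genes were Arl1, Dpp3, Gatd3a, Slc30a5 and Mrpl43, at 0.075 to 0.082 beside a median of 0.30 over all genes. Closest to the mean of the 3 receptors were Mcfd2, Gmppa, Uso1, Htra2 and Fkbp2, at 0.086 to 0.14 beside a median of 0.55. Mcfd2 is the partner of the cargo receptor Lman1 in ER exit, and Uso1 is the tether named above.

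The array medians ran from 5.69 to 5.83 and between 79.0% and 81.4% of probe sets reached 4. All 8 hepatocyte markers reached 4 on every array, but so did all 8 endothelial markers. Group means of Alb, Ttr and Apoa1 were 13.2 to 14.5, while those of the hepatocyte marker Ass1 were 4.71 to 5.05. Of the hepatocyte markers Hnf4a rose with wild-type IRE1a by 0.74 ± 0.19 (limma adjusted p = 0.0237). The summed hepatocyte signal was 15.63 to 15.77 with S724A IRE1a, below the 15.80 to 15.83 of EGFP, and 15.71 to 15.86 with wild-type IRE1a. Of the 8 macrophage markers none passed with either IRE1a virus, though under the block on replicate number Cd68 did with wild-type (0.41, adjusted p = 0.0124) and Cd14 with S724A IRE1a (0.88, adjusted p = 0.00649). Their summed signal was higher with wild-type (12.88 to 13.14) and S724A IRE1a (12.99 to 13.31) than with EGFP (12.51 to 12.72). Marker by marker, only 4 of the 8 were higher than EGFP with wild-type and 3 with S724A IRE1a. The median differences were -0.019 and -0.13. All 8 reached 4 on every EGFP array and 6 of 8 on every array of either IRE1a group. The markers Cd68 and Cd14 were at 11.3 or more in every group, while Clec4f, Marco and Vsig4, which define Kupffer cells, had means of 4.10 to 5.44. The part of these markers in the rise of the coat and receptor genes was not tested. The summed stellate cell and fibroblast markers were at 8.57 to 8.74 with EGFP, 8.45 to 8.68 with wild-type and 8.42 to 8.50 with S724A IRE1a, and none of the 6 tested passed. The summed endothelial, cholangiocyte, erythroid and other leukocyte markers overlapped between EGFP and each IRE1a group. For the leukocyte markers with S724A IRE1a this was only at the edge (7.44 to 7.58, beside 7.58 to 7.82 with EGFP). Under the block on replicate number Krt19 fell with wild-type (-0.51, limma adjusted p = 0.00177) and S724A IRE1a (-0.48, 0.00362). Under it Hnf4a (0.53, 0.0113) and Oit3 (0.47, 0.0308) rose with S724A IRE1a, and Nkg7 fell (-0.47, 0.0441).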

How the data were processed

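The authors used GCRMA (background correction and normalisation across arrays), per the submitters' processing notes, with no version named. The authors deposited log2 signals; that scale was read from the values. The 64 controls of the platform were dropped, and 34945 probe sets had 1 symbol in its gene table, with symbols updated through gene numbers to GRCm38.p6. A gene was stood for by its probe set with the highest mean over the 15 arrays. In R 4.3.3 with limma 3.58.1, 1 fit held all 5 groups (lmFit and eBayes, 10 residual degrees of freedom), with Benjamini-Hochberg adjustment over the 16294 genes or 30046 probe sets tested and a threshold of 0.05. Precision is limited by the number of arrays: 95% confidence intervals had a median half-width of 0.30. The test was tried on simulated data.

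The replicate numbers come from the sample titles. Residuals of same-number arrays within an arm correlated in 12 of 12 pairs (r from 0.20 to 0.69), so the numbers pair the arrays, and a fit with that block was an alternative. Others were quantile normalisation, median centring, no filter or a filter of 6, a floor of 4, the 6 arrays alone, trended or robust variances, the mean of a gene's probe sets, and leaving out each array.

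The genes and lists were chosen with earlier results of these data known. Named were all 10 genes, Ern1, up to 6 genes by smallest p of each pathway list, and the 5 closest profiles. List genes with no single-symbol probe set, or below the filter, were not tested. Protein sequences were not used here.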

Additional observations from a re-analysis of the deposited data

How the results depend on the processing

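Cope, Kdelr1 and Kdelr3 kept their calls in both overexpression comparisons under all 16 alternatives, and Kdelr2 did with wild-type IRE1a. As Cope, Kdelr1 and Kdelr3 have 1 probe set each, averaging probe sets could not change their values and was no test of them. With probe sets averaged, that Kdelr2 value (0.99, limma adjusted p = 0.0374) takes in the second probe set, where wild-type replicate 3 alone was high. The count of coat and receptor genes that rose with S724A IRE1a was 3 when probe sets were averaged, and Kdelr2, Copa and Copz1 were the calls lost. With arrays left out in turn, the count of probe sets called with wild-type IRE1a ran from 4 to 7. With the replicate number as a block (pairing), Copb2 and Copz2 gained a call with wild-type IRE1a and Copz2 with S724A IRE1a, no other call among the 10 genes changed, and 1 COPI partner gene was called with the hairpin. The split of all calls moved with quantile normalisation, to 55.4% higher with wild-type and 48.3% with S724A IRE1a from 66.2% and 63.3%, while the median of the 10 genes moved to 0.53 and 0.54.

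Signs turned only in differences that did not pass. Arcn1 with wild-type IRE1a was 0.0098 with median centring and -0.037 to 0.015 with arrays left out, and with S724A IRE1a -0.025 with quantile normalisation. Ern1 with wild-type IRE1a was -0.11 when probe sets were averaged and -0.023 to 0.34 with arrays left out. The same ranges were -0.46 to 1.34 for the second Copa probe set and -0.15 to 0.030 for an Arcn1 probe set with wild-type IRE1a, and -0.057 to 0.095 for the weaker Copz1 probe set with S724A IRE1a (-0.11 with quantile normalisation). Between the IRE1a forms they were -0.0907 to 0.023 for Copa, -0.058 to 0.097 for Copb1, -0.0046 to 0.080 for Cope, -0.10 to 0.22 for Copz2 and -0.040 to 0.062 for Kdelr1. With the hairpin they were -0.18 to 0.13 for Copa, -0.20 to 0.054 for Copb2, -0.22 to 0.10 for Cope, -0.026 to 0.055 for Copz1, -0.096 to 0.068 for Kdelr1, -0.096 to 0.082 for Kdelr2 and -0.28 to 0.11 for Kdelr3. There Copz1 was -0.010 with median centring and -0.041 when probe sets were averaged, and Kdelr2 0.017 with quantile normalisation. The causes were not tested. With 3 arrays in each group, the intervals limit what these comparisons can show.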
